A study of Mus musculus with 8 samples.

Results

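The genes described here encode the machinery that copies DNA in S phase of the cell cycle, followed over 1 day in mouse colonic crypts. The list held 40 named genes, and the members were the rows of the deposited table whose gene name is on it. Of the 40, 39 were found among the 14247 genes of the table and all 39 passed the filter of a mean of at least 10 normalised counts, which kept 13503 genes; Fen1, the flap endonuclease of Okazaki fragments, was not analysed here. The RNA came from colonic crypts of wild-type (WT) mice, which in the study's methods are adult C57BL/6 mice kept under equal hours of light and dark. Zeitgeber time (ZT) counts hours from lights on, so ZT0 opens the resting phase and ZT12 the active phase. Crypts were sampled at ZT0, ZT6, ZT12 and ZT18 with 2 libraries each, 8 in all, and no group here carried a Cre, a deletion or a drug. Both libraries of each time point are separate samples in the labels, which do not tie them to mice. The study's legends describe wild-type mice and count more of them per time point than there are libraries here, and how mice correspond to libraries is not given. The p-values therefore measure the spread between these libraries, which may be technical.

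Replication is prepared in G1, when the origin recognition complex with Cdc6 and Cdt1 loads the ring of Mcm2 to Mcm7 onto origins, a step called licensing. In S phase Cdc45 and the GINS complex join the ring to form the active helicase, primase and polymerase alpha start each strand, polymerases delta and epsilon extend it on the sliding clamp PCNA, and a ligase seals the fragments, while nucleotide synthesis and histone delivery keep pace. In the colon the cells that divide lie in the lower crypt, above and among the stem cells, and the transcription factors of the E2F family switch on many of these genes late in G1. Because these are bulk libraries, fewer dividing cells and less RNA of these genes per cell cannot be told apart.

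E2F factors bind short GC-rich sites near the starts of such genes, and 4 promoters of members are printed here to show what these sites look like and where they lie. The 250 bases before each RefSeq start (build GRCm38.p6, the build of the files) were available for 33 of the 39 members and searched on both strands for TTTCCCGC or TTTGGCGC. Of these, 6 members held a match (Cdc6, Gins3, Mcm5, Mcm6, Mcm7 and Pola1), which is 18.2% of them, against 2.77% of 10513 tested genes with a listed promoter and 1.30% of all 32851 promoters. Each line gives the last 170 bases before the start, 5′ to 3′ on the strand of the gene, with the matches in capitals; the windows of Gins3 and Mcm7 run into annotated exons and are not shown. The window of Cdc6 precedes its RefSeq start but lies inside the gene as GENCODE annotates it, from 98907801, in the first intron of longer transcripts apart from its first base.
Cdc6 (chr11:98907981-98908150, + strand): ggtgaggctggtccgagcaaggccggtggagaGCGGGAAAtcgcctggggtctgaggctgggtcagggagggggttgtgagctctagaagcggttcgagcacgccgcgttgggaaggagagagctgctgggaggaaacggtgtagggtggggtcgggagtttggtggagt
Mcm5 (chr8:75109339-75109508, + strand): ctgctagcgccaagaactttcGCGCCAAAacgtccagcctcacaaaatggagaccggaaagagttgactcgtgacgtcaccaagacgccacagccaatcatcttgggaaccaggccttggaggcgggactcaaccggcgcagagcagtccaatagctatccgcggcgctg
Mcm6 (chr1:128359706-128359875, - strand): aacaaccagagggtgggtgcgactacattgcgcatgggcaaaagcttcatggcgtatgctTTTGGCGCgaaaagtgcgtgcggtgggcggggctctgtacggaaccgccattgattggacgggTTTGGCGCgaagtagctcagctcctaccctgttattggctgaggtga
Pola1 (chrX:93632156-93632325, - strand): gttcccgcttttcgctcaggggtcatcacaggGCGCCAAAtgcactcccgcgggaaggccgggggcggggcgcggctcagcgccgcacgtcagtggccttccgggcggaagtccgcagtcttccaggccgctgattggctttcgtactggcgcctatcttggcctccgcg
Mcm6 held 2 copies of TTTGGCGC on its own strand, while the single matches of Cdc6, Mcm5 and Pola1 read in reverse. CCAAT, the site of the general factor NF-Y, was found on either strand in 20 of the 33 members (60.6%, against 40.4% of tested genes and 33.8% of all promoters). The E-box CACGTG, a site that BMAL1 and CLOCK can bind, was found in 4 of 33 (12.1%; Chaf1a, Pola2, Rfc1 and Tyms), against 9.67% of tested genes and 6.02% of all promoters. No match of one motif overlapped that of another, and a match describes letters, not binding.

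The libraries held between 14722342 and 25159440 reads over the listed genes, of which 6.68% to 22.2% came from mitochondrially encoded genes. That share was 12.2% and 19.8% in the ZT0 libraries and 19.2% and 19.4% in those of ZT6. It was 6.68% and 7.85% in those of ZT12, and 22.2% and 9.80% in those of ZT18. The 8 epithelial markers, Epcam and keratins among them, summed to 221688 to 289082 normalised counts per library (1.30 times), as the label colonic epithelial cell requires. Markers of other cells were uneven. All 5 smooth muscle markers were highest in ZT12 replicate 1, where they summed to 3672 normalised counts, against 229 in ZT12 replicate 2 and 6.95 to 93.3 in the other 6 libraries, of which ZT0 replicate 1 listed Acta2, Des, Cnn1 and Actg2 at 0. The 6 fibroblast markers summed to 2329 in the same library and to 3.22 to 648 elsewhere, with Dcn and Lum at 0 in both ZT18 libraries. The 7 B and plasma cell markers summed to 2781 in ZT0 replicate 2 and to 141 to 1107 elsewhere, and the 7 myeloid markers to 2595 there and to 728 to 1271 elsewhere. These 2 libraries, ZT12 replicate 1 and ZT0 replicate 2, stood apart in those lists. Other lists were uneven elsewhere. The 8 T cell markers summed to 314 in ZT0 replicate 2, 297 in ZT18 replicate 2 and 38.7 to 179 in the rest. The 7 goblet markers summed to 507292 in ZT18 replicate 1 and to 257793 to 368314 in the rest. The 4 endothelial markers summed to 432 in ZT12 replicate 1 and 48.3 in ZT18 replicate 2, the highest and lowest. Counts and medians of the members are given with and without ZT12 replicate 1 and ZT0 replicate 2 below. The part of these cells in the results was not tested.

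Most members had higher means at ZT18 and ZT0 than at ZT6 and ZT12, although no single member passed a test of change over the day after adjustment by limma. The 39 members summed to 16363 and 14101 normalised counts in the ZT0 libraries, 11457 and 11530 in those of ZT6, 11036 and 13214 in those of ZT12, and 17002 and 16917 in those of ZT18, so that the highest library held 1.54 times the lowest. The mean was highest at ZT18 for 26 members, at ZT0 for 12, at ZT12 for 1 and at ZT6 for 0. It was lowest at ZT6 for 20 members, at ZT12 for 18, at ZT0 for 1 and at ZT18 for 0. Over all genes tested, 46.3% had their highest mean at ZT18 or ZT0 (38 of 39 members) and 50.2% their lowest at ZT6 or ZT12 (38 of 39 members). The exception on both counts was Ccne2.

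Within libraries the same picture held, with a visible gap between replicates in the median over members at ZT0 and ZT12. The median over members of log2(normalised count + 1) minus the mean of the 8 libraries was 0.25 and 0.04 in the ZT0 libraries, -0.25 and -0.24 in those of ZT6, -0.36 and -0.06 in those of ZT12, and 0.26 and 0.34 in those of ZT18. Replicates differed in this median by a pooled SD of 0.13, and over all genes tested the same median was at most 0.034 in any library. ZT0 replicate 1 and both ZT18 libraries had 32 to 34 of 39 members above their own mean, ZT0 replicate 2 had 22, ZT12 replicate 2 had 16, and both ZT6 libraries and ZT12 replicate 1 had 5 to 10. ZT12 replicate 1, the library with the muscle markers, held the lowest value of 16 members, against 19.6% of all genes. The 18 members with a mean of at least 300 normalised counts gave medians of -0.29 and -0.06 at ZT12 and 0.34 and 0.35 at ZT18.

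**Figure D1:**
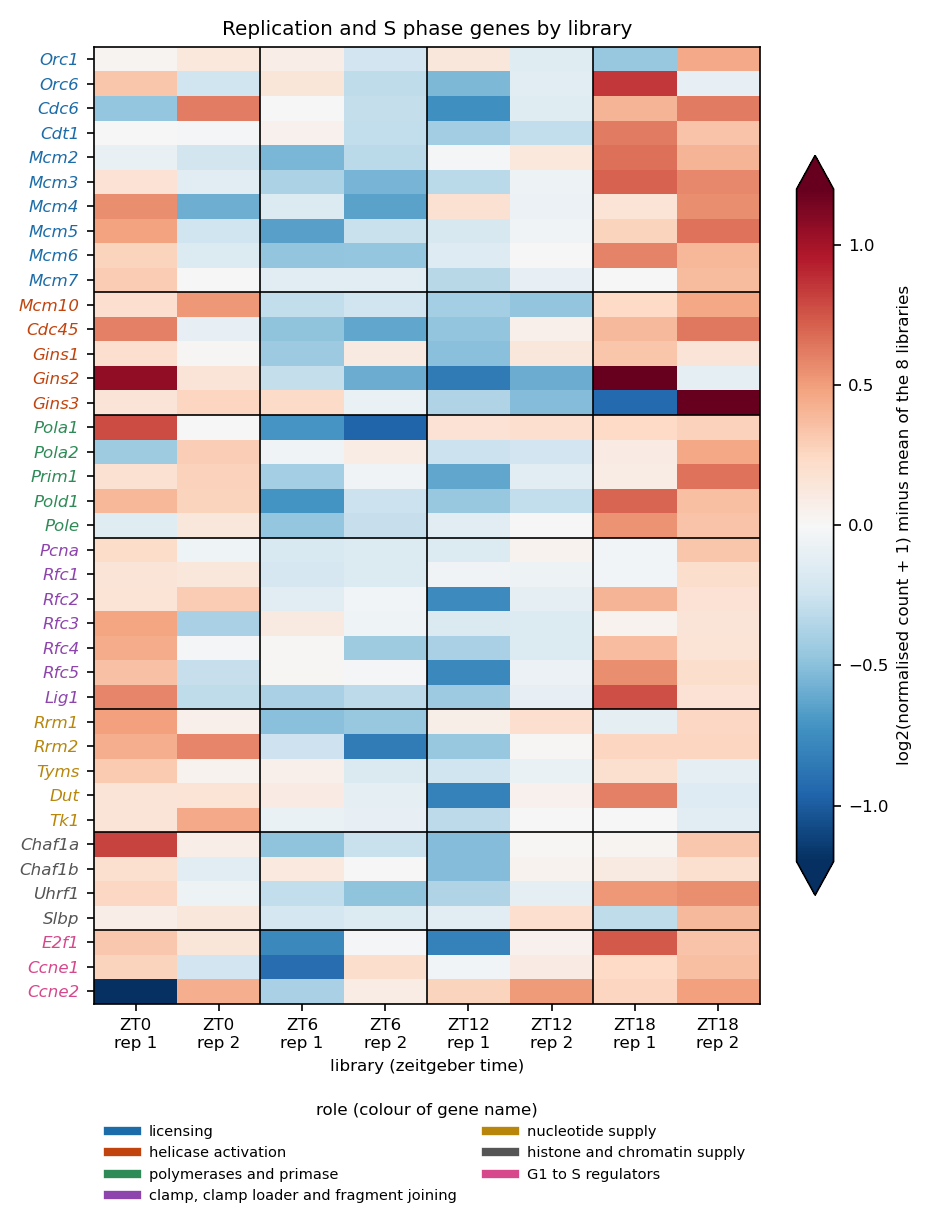
Heat map of 39 members (rows, grouped and coloured by role) in 8 libraries (columns); colour is log2(normalised count + 1) minus the mean of the 8 libraries, with the scale ending at 1.2 in both directions. Red dominates the ZT18 libraries and ZT0 replicate 1, blue the ZT6 libraries and ZT12 replicate 1, and ZT0 replicate 2 and ZT12 replicate 2 are mixed.

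Compared per kilobase of exon, the members spanned 31.3 times, with Pole lowest and Pcna highest at 469 normalised counts per kb, with a median of 69.4, and 10 members exceeded 100. Their exon length (median 4259 bp) and GC content (median 49.2%) were near those of all genes (4183 bp and 49.7%). The spans of 10 members, introns included, overlap a listed gene on the opposite strand (Ccne2, Cdc45, Chaf1a, Gins2, Lig1, Mcm7, Orc6, Rfc4, Rfc5 and Tk1). The shared stretches run from 64 bp (Mcm7 with Cops6) to 5622 bp (Ccne2 with Ints8). The use of strand in counting is not given in the sources used here. Reads from exons within these stretches, if any, therefore cannot be separated from those of the neighbours. Pcna and Tyms have annotated processed pseudogenes that could share reads.

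Among the 10 licensing genes, the subunits of the Mcm ring had their highest mean at ZT18. Mcm6 (ENSMUSG00000026355, chromosome 1, 128331590 to 128359664), the licensing gene with the highest level per kb (180), had 977 and 728 normalised counts in the ZT0 libraries, 585 and 589.6 in those of ZT6, 730.3 and 815 in those of ZT12, and 1234 and 1071 in those of ZT18. Both ZT18 libraries lay above the other 6 and both ZT6 libraries below them, with means of 1153 ± 115 at ZT18 and 587 ± 3.13 at ZT6 (SD, n = 2). A 24 h cosine fitted by limma had an amplitude, from mean to peak, of 0.49 ± 0.093 (log2, SE) and an adjusted p of 0.274. Mcm3 (ENSMUSG00000041859), the licensing gene with the largest amplitude, had 407 and 327 normalised counts in the ZT0 libraries, 277 and 245 in those of ZT6, 288 and 345 in those of ZT12, and 590.4 and 538 in those of ZT18. Its ZT18 libraries also lay above all others, and its cosine had an amplitude of 0.57 ± 0.11 (log2, SE) and an adjusted p of 0.287. Mcm2 had 398 and 365 normalised counts in the ZT0 libraries, 289.5 and 339 in those of ZT6, 421 and 462 in those of ZT12, and 672 and 563 in those of ZT18. Here ZT12 lay above ZT0, in contrast to Mcm3 and Mcm6. Mcm5 had 697 and 423 normalised counts in the ZT0 libraries, 318 and 416 in those of ZT6, 436 and 484 in those of ZT12, and 601 and 788 in those of ZT18. Mcm4 had 405 and 182 normalised counts in the ZT0 libraries, 244 and 175 in those of ZT6, 312 and 262 in those of ZT12, and 307 and 404 in those of ZT18. In both of these the ZT0 replicates differed by more than the means of ZT18 and ZT0 did. Mcm7 had 723 and 587 normalised counts in the ZT0 libraries, 535 and 533 in those of ZT6, 465 and 548 in those of ZT12, and 584 and 764 in those of ZT18, with a smaller amplitude of 0.24 ± 0.10 (log2, SE).

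Of the genes that load the ring, Cdt1, which escorts the ring to origins, had 286 and 281 normalised counts in the ZT0 libraries, 294 and 232 in those of ZT6, 213 and 232 in those of ZT12, and 439 and 362 in those of ZT18, with both ZT18 libraries above the other 6. Cdc6, the ATPase that recruits it, had 79.5 and 169 normalised counts in the ZT0 libraries, 109.6 and 90.3 in those of ZT6, 65.5 and 99.2 in those of ZT12, and 146 and 169.7 in those of ZT18. Its 2 ZT0 libraries took the second lowest and the second highest place. Orc1, the ATPase subunit of the origin recognition complex, had 103 and 110.1 normalised counts in the ZT0 libraries, 107 and 85.9 in those of ZT6, 111 and 91.1 in those of ZT12, and 73.5 and 139 in those of ZT18. It had the smallest amplitude of all members, 0.055 ± 0.18 (log2, SE). Orc6 spanned 119 to 313 normalised counts, and its ZT18 replicates lay at 313 and 162.

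In the 5 genes of helicase activation the order of ZT0 and ZT18 against ZT6 and ZT12 was clear of overlap in Mcm10, a factor that helps the helicase to open. Mcm10 (ENSMUSG00000026669) had 274 and 342 normalised counts in the ZT0 libraries, 193 and 201 in those of ZT6, 179 and 172 in those of ZT12, and 281 and 328 in those of ZT18, so that all 4 libraries of ZT0 and ZT18 lay above all 4 of ZT6 and ZT12. Cdc45 (ENSMUSG00000000028, chromosome 16, 18780447 to 18811987), a helicase subunit and the gene of this role with the highest level per kb (37.0), had 188 and 115 normalised counts in the ZT0 libraries, 87.5 and 79.4 in those of ZT6, 88.01 and 128 in those of ZT12, and 161 and 191 in those of ZT18. Its amplitude was 0.58 ± 0.17 (log2, SE) with an adjusted p of 0.494, and the ZT0 replicates overlapped with ZT12. Gins2 (ENSMUSG00000031821), a GINS subunit, had the largest amplitude of all members, 0.83 ± 0.23 (log2, SE), with an adjusted p of 0.481. It had 242 and 129 normalised counts in the ZT0 libraries, 94.9 and 76.2 in those of ZT6, 63.7 and 76.1 in those of ZT12, and 273 and 107 in those of ZT18, with wide gaps between the replicates of ZT0 and of ZT18, although all 4 of these libraries lay above the other 4. Gins1 spanned 37.5 to 67.5 normalised counts. Gins3 held both its lowest and its highest value at ZT18, at 24.8 and 116 normalised counts.

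Of the 5 polymerase and primase genes, Pold1 was the member with the smallest p in the cosine fit. Pold1 (ENSMUSG00000038644, chromosome 7, 44532746 to 44548849), the catalytic subunit of polymerase delta, has both the highest level per kb of this role (92.7) and the largest amplitude. It had 565 and 514 normalised counts in the ZT0 libraries, 260.0 and 359 in those of ZT6, 313 and 349 in those of ZT12, and 694 and 549 in those of ZT18, again with the 4 libraries of ZT0 and ZT18 above the other 4. The mean was lowest at ZT6, at 309 ± 70.04, and highest at ZT18, at 621 ± 103 (SD, n = 2), and the cosine had an amplitude of 0.62 ± 0.11 (log2, SE) with an adjusted p of 0.248. Pola1 (ENSMUSG00000006678), the catalytic subunit of polymerase alpha, had 258 and 149 normalised counts in the ZT0 libraries, 91.2 and 76.2 in those of ZT6, 169 and 172 in those of ZT12, and 177 and 181 in those of ZT18. Its low point was ZT6 alone, since the ZT12 and ZT18 libraries lay together near the lower ZT0 library. Prim1, the primase, had 283 and 301 normalised counts in the ZT0 libraries, 187 and 242 in those of ZT6, 161 and 227 in those of ZT12, and 265 and 392 in those of ZT18, with ZT0 and ZT18 above ZT6 and ZT12 in every library. Pole, the catalytic subunit of polymerase epsilon, had 148 and 179 normalised counts in the ZT0 libraries, 118 and 135 in those of ZT6, 149 and 163 in those of ZT12, and 238 and 208 in those of ZT18. Both its ZT18 libraries were the highest. Pola2, the second subunit of polymerase alpha, spanned 225 to 419 normalised counts with an amplitude of 0.16 ± 0.15 (log2, SE).

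The clamp had a smaller amplitude than the ligase. Pcna (ENSMUSG00000027342, chromosome 2, 132249162 to 132253314), the clamp, had 1302 and 1076 normalised counts in the ZT0 libraries, 984 and 995 in those of ZT6, 994 and 1154 in those of ZT12, and 1095 and 1408 in those of ZT18, an amplitude of 0.18 ± 0.091 (log2, SE) and an adjusted p of 0.672. Its ZT18 replicates lay further apart than the means of ZT18 and ZT6. Lig1 (ENSMUSG00000056394), the ligase that joins Okazaki fragments, had 896 and 484 normalised counts in the ZT0 libraries, 455 and 481 in those of ZT6, 441 and 559 in those of ZT12, and 1024 and 675 in those of ZT18. Replicate 1 of ZT0 and both ZT18 libraries stood above the rest, ZT0 replicate 2 lay among the ZT6 and ZT12 libraries, and the cosine had an amplitude of 0.46 ± 0.15 (log2, SE) and an adjusted p of 0.521. Among the clamp loader genes, Rfc2 had 1337 and 1475 normalised counts in the ZT0 libraries, 1085 and 1168 in those of ZT6, 704 and 1105 in those of ZT12, and 1589 and 1353 in those of ZT18. Its lowest value was that of ZT12 replicate 1, without which the amplitude was 0.25 in place of 0.39. Rfc1 also had all ZT0 and ZT18 libraries above the others but within a narrow range of 503 to 670.0. The amplitudes of Rfc3, Rfc4 and Rfc5 were 0.11, 0.34 and 0.30.

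In nucleotide supply, ribonucleotide reductase was lowest at ZT6 and highest at ZT0. Rrm2 (ENSMUSG00000020649), its S phase subunit and the gene of this role with the largest amplitude, had 289 and 319.9 normalised counts in the ZT0 libraries, 179 and 119 in those of ZT6, 155 and 214 in those of ZT12, and 255 and 254 in those of ZT18. Every ZT0 and ZT18 library lay above every ZT6 and ZT12 library, with an amplitude of 0.54 ± 0.15 (log2, SE) and an adjusted p of 0.481. Rrm1, the large subunit, had 921 and 683 normalised counts in the ZT0 libraries, 462 and 479 in those of ZT6, 690.1 and 753 in those of ZT12, and 610.1 and 781 in those of ZT18, where ZT6 alone was low. Dut (ENSMUSG00000027203), which removes dUTP and has the highest level per kb of this role (158), had 411 and 414 normalised counts in the ZT0 libraries, 395 and 343 in those of ZT6, 209.7 and 383 in those of ZT12, and 561 and 331 in those of ZT18. The ZT18 replicates gave the highest and the second lowest value, the lowest was ZT12 replicate 1, and the fit gave an amplitude of 0.29 ± 0.17 (log2, SE) and an adjusted p of 0.698. Without ZT12 replicate 1, the library with the muscle markers, the amplitude was 0.12. Tk1, thymidine kinase, had 564 and 693 normalised counts in the ZT0 libraries, 478 and 473 in those of ZT6, 405 and 506 in those of ZT12, and 508 and 460.0 in those of ZT18. Tyms, thymidylate synthase, had 520.5 and 432 normalised counts in the ZT0 libraries, 436 and 371 in those of ZT6, 356 and 395 in those of ZT12, and 479 and 388 in those of ZT18. Neither was high at ZT18: their ZT18 means were 484 ± 33.6 and 434 ± 64.3 normalised counts, below 629 ± 91.1 and 476 ± 62.7 at ZT0 (SD, n = 2).

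Of the 4 genes that serve histones and chromatin, Uhrf1 had both the highest level per kb (124) and the largest amplitude. Uhrf1 (ENSMUSG00000001228, chromosome 17, 56303321 to 56323486), which brings the maintenance DNA methyltransferase to newly copied DNA, had 606 and 488 normalised counts in the ZT0 libraries, 414 and 363 in those of ZT6, 395 and 468 in those of ZT12, and 732 and 752 in those of ZT18. The replicates of ZT18 differed little and lay above all others, and the cosine had an amplitude of 0.50 ± 0.10 (log2, SE) and an adjusted p of 0.314. Chaf1a, the large subunit of the histone chaperone CAF-1, had 261 and 157 normalised counts in the ZT0 libraries, 106 and 123 in those of ZT6, 103 and 149.9 in those of ZT12, and 151 and 185 in those of ZT18, with its maximum in ZT0 replicate 1. Chaf1b, its partner, and Slbp, which binds the stem loop of histone mRNA, had amplitudes of 0.14 and 0.12.

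Of the 3 regulators of entry into S phase, E2f1 and Ccne1 had their highest mean at ZT18 and Ccne2 at ZT12. E2f1 (ENSMUSG00000027490), the activator of many genes of this list, had 152 and 134 normalised counts in the ZT0 libraries, 70.2 and 119.7 in those of ZT6, 68.4 and 126 in those of ZT12, and 202 and 154 in those of ZT18. All ZT0 and ZT18 libraries lay above all ZT6 and ZT12 libraries, although the replicates of ZT6 and of ZT12 lay far apart, and the amplitude was 0.56 ± 0.20 (log2, SE) with an adjusted p of 0.543. Ccne1, cyclin E1, had 110.3 and 77.4 normalised counts in the ZT0 libraries, 48.05 and 106 in those of ZT6, 88.9 and 98 in those of ZT12, and 108 and 117 in those of ZT18, with 1 low library at ZT6. Ccne2 (ENSMUSG00000028212), cyclin E2, had 25.8 and 114 normalised counts in the ZT0 libraries, 64.1 and 89.2 in those of ZT6, 101 and 119.9 in those of ZT12, and 101 and 118 in those of ZT18. Its lowest value was ZT0 replicate 1, a library in which most members were high, and its fitted peak at 13.8 h was the earliest of all members. The amplitude of 0.57 ± 0.29 (log2, SE) (adjusted p of 0.675) was 0.26 without that library and 0.91 without ZT0 replicate 2.

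**Figure D2:**
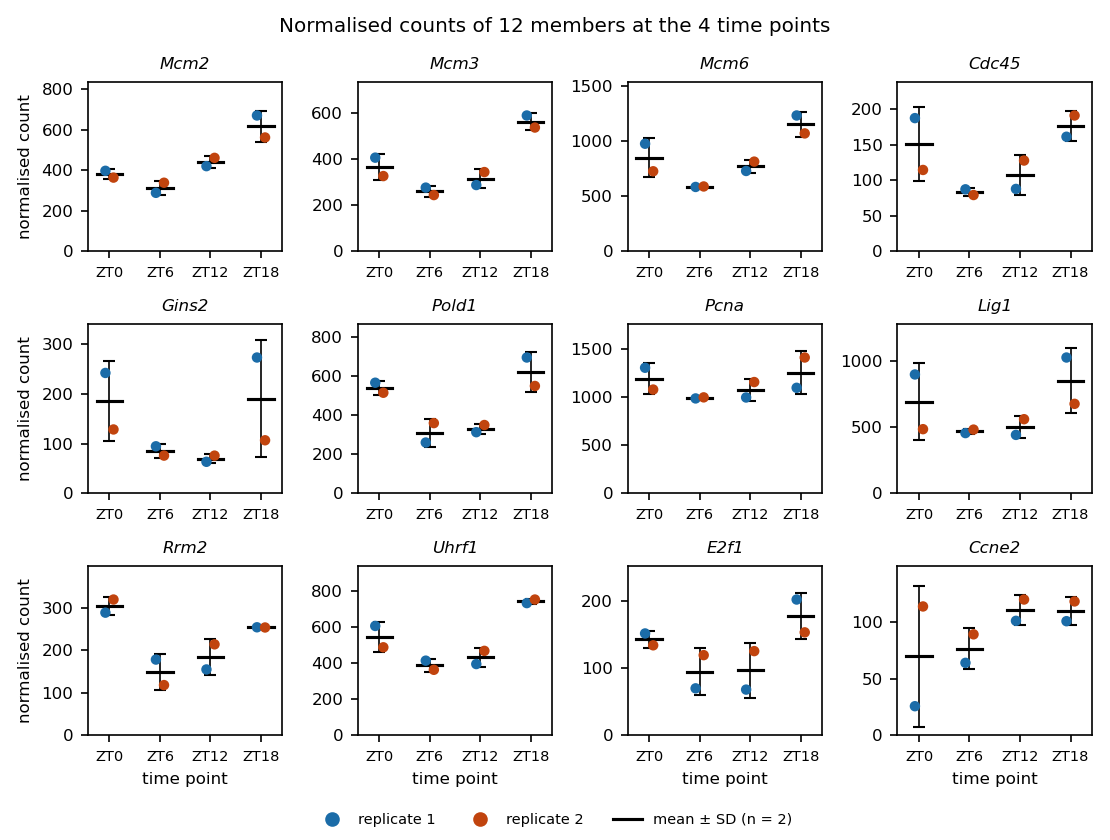
Normalised counts (vertical axis, from 0) of 12 members at the 4 time points, with replicate 1 in blue, replicate 2 in orange, and the mean with its SD (n = 2) in black. The ZT18 libraries of Mcm2, Mcm3, Mcm6 and Uhrf1 lie above all other libraries, Pcna has a narrow range, and Ccne2 has its lowest point in ZT0 replicate 1.

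The first comparison asked whether single members followed a 24 h rhythm, the question the study put to these libraries. No member passed an adjusted p of 0.05 in the 24 h cosine fit, where 16 of 13503 genes (0.118%) did, and the smallest adjusted p of a member was 0.248 (Pold1). Before adjustment 15 of 39 members had p under 0.05, 38.5% against 9.15% of all genes, and edgeR's quasi-likelihood test on the recovered reads gave 14 with none called. The limma count was 10 without ZT6 replicate 1 or ZT18 replicate 2, and 12 without both ZT0 replicate 2 and ZT12 replicate 1. DESeq2 on the same reads called 5 members (Mcm2, Mcm3, Mcm6, Pold1 and Uhrf1), among 1.36% of all genes. The median amplitude of members was 0.38 on the log2 scale, against 0.23 for all genes.

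The fitted peaks fell in the later part of the dark phase. They ran from 13.8 h (Ccne2) to 23.8 h (Tk1) with a median of 20.4 h. Between 17 and 23 h, a window not fixed beforehand, lay the peaks of 36 of 39 members and of 22.9% of all genes. The third outside was Gins3 at 23.5 h. Among licensing genes the Mcm ring peaked between 17.2 h (Mcm2) and 21.2 h (Mcm7). With 4 time points the peak of a gene is only loosely set, and the order of members within this window was not tested. All 4 libraries of ZT0 and ZT18 lay above all 4 of ZT6 and ZT12 in 11 members (28.2%: Chaf1a, E2f1, Gins2, Mcm10, Mcm7, Pold1, Prim1, Rfc1, Rfc2, Rrm2 and Uhrf1), against 2.64% of all genes, a split chosen after the values were seen. Without ZT0 replicate 2 and ZT12 replicate 1 the same split held in 22 members (56.4%), against 5.45% of all genes, the 11 among them.

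**Figure D3:**
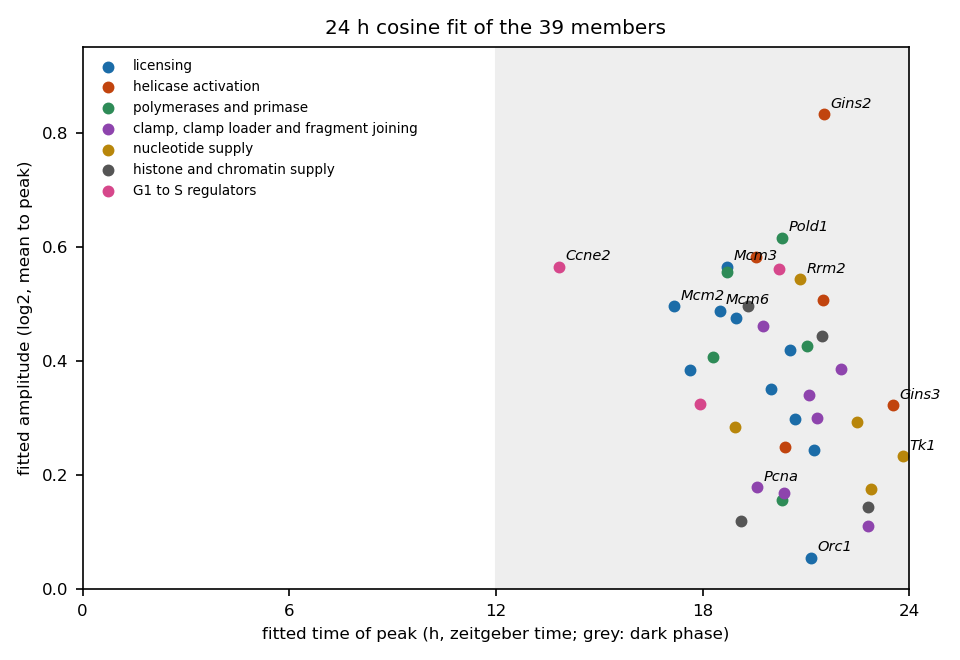
Fitted time of peak (horizontal axis, hours of zeitgeber time, dark phase in grey) against fitted amplitude (vertical axis, log2, mean to peak) of the 39 members, coloured by role. All but Ccne2 (13.8 h) lie to the right of 17 h, and Gins2 stands highest at 0.83.

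An exact rank test modelled on JTK, which the study used, was limited by the number of libraries. Its smallest exact p within a gene was 0.0190 for a peak at a sampled time and 0.114 for a peak midway between sampled times. Mcm2, Mcm3, Mcm6 and Pole reached the former (4 of 39 members, against 2.06% of all genes under 0.05), and 0 members and 0% of all genes were called, since the smallest adjusted p over all genes was 0.877. Leaving out a library changes the smallest p that the rank test can reach. Without a ZT6 or ZT18 library it is above 0.05 for a peak at ZT6 or ZT18. How firm the count of 4 is can therefore not be read from leaving those libraries out. The F-test over the 4 time points, which assumes no shape, called 0 members and 12 genes in all (0.0889%). Before adjustment 13 members had p under 0.05, 33.3% against 7.03%, the smallest adjusted p being 0.540; DESeq2 called 4 (Mcm3, Mcm6, Pold1 and Uhrf1; 1.61% of all genes), and edgeR 0. The limma count of 13 was 6 without ZT6 replicate 2, 8 without ZT6 replicate 1 or ZT12 replicate 2, and 10 without both ZT0 replicate 2 and ZT12 replicate 1.

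Comparison of mid-night with mid-day, ZT18 with ZT6, showed the widest difference. All 39 members were higher at ZT18 (38 when scaled to reads outside the mitochondrial genome), against 48.4% of all genes, and in 30 of them the libraries of the 2 time points did not overlap, against 19.2%. The median log2 difference was 0.55 (1.47 times on the linear scale), against -0.01 for all genes. Mcm3 had the smallest p, at 2.16 times or 1.11 ± 0.22 (log2, SE), followed in size by Pola1 at 2.13 times (1.09 ± 0.33), Cdc45 at 2.10 (1.07 ± 0.36), Pold1 at 2.02 (1.01 ± 0.23), Gins2 at 2.00 (1.00 ± 0.49), Mcm2 and Mcm6 at 1.96 each and Uhrf1 at 1.91. None was called by limma (0.0444% of all genes were), with a smallest adjusted p of 0.387. Its unadjusted p was under 0.05 for 15 members (38.5%), against 3.22% of all genes in that direction and 6.71% in either direction. The edgeR test gave 15 and called 0. DESeq2 called Mcm2, Mcm3, Mcm6 and Uhrf1 (0.504% of all genes). With 1 library left out at a time the median stayed between 0.53 and 0.64 and at least 35 members stayed higher, but the count under 0.05 was 9 without either ZT6 library. Without ZT0 replicate 2 and ZT12 replicate 1 it was 14.

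Licensing genes showed the widest difference between ZT18 and ZT6 after the polymerases. Their median was 0.71 (10 of 10 higher, 8 not overlapping), that of polymerases and primase 0.81 (5 of 5, 5), of helicase activation 0.62 (5 of 5, 4), of the G1 to S regulators 0.65 (3 of 3, 3), of the histone and chromatin genes 0.39 (4 of 4, 2), of clamp, loader and ligase 0.38 (7 of 7, 6) and of nucleotide supply 0.23 (5 of 5, 2). Over all genes tested 48.4% were higher and 19.2% were higher without overlap, with a median of -0.01. The differences between roles were not tested.

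From ZT12 to ZT18 the difference was of similar size. At ZT18 37 of 39 members were higher (48% of all genes), with a median log2 difference of 0.52 (1.44 times; all genes -0.02), and 29 did not overlap (17.8% of all genes). Uhrf1 had the smallest p, at 1.72 times or 0.79 ± 0.20 (log2, SE), and Gins2 the largest value, at 2.44 times (1.29 ± 0.49). None was called (0.0296% of all genes) and the smallest adjusted p was 0.514. By limma 14 members (35.9%) had an unadjusted p under 0.05, against 4.32% of all genes in that direction and 9.03% in either direction. Without ZT12 replicate 1, the library with the muscle and fibroblast markers, the median was 0.43 and the count 5.

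The step from ZT0 to ZT6 brought lower values. At ZT6 36 of 39 members were lower than at ZT0 (48.9% of all genes), 24 without overlap (18.7%), with a median of -0.36 (0.777 times; all genes 0.0069). Pola1 had the smallest p, at 0.427 times or -1.23 ± 0.33 (log2, SE), and Rrm2 was at 0.480 times (-1.06 ± 0.29) and Gins2 at 0.484. None was called (0.0444% of all genes) and the smallest adjusted p was 1.0. By limma 9 members (23.1%) had an unadjusted p under 0.05, all lower, against 1.98% of all genes lower and 4.13% in either direction. That count was 4 without ZT0 replicate 1, 14 without ZT0 replicate 2, and 3 without either ZT6 library.

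Lights-off compared with lights-on gave a like difference, with fewer members clear of overlap. At ZT12 35 of 39 members were lower than at ZT0 (48.6% of all genes), 17 without overlap (20.3%) and 1, Mcm2, higher without overlap (20.7%), with a median of -0.34 (0.791 times; all genes 0.01). Mcm10 had the smallest p, at 0.574 times or -0.80 ± 0.24 (log2, SE), Gins2 was at 0.397 times (-1.33 ± 0.49) and Ccne2 at 2.00 times in the other direction (1.00 ± 0.61). None was called (0.0667% of all genes) and the smallest adjusted p was 0.381. By limma 5 members (12.8%) had an unadjusted p under 0.05, all lower, against 4.95% of all genes lower and 9.96% in either direction. Both libraries with markers of other cells enter here: the median was -0.20 and the count 1 without ZT12 replicate 1, -0.50 without ZT0 replicate 2, -0.18 without ZT0 replicate 1, and -0.30 with a count of 1 without both marker-rich libraries. The count was 8 without ZT12 replicate 2.

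Neighbouring extremes differed less. At ZT18 27 members were higher and 12 lower than at ZT0 (49.6% and 50.3% of all genes), with a median of 0.13 (1.10 times; all genes -0.0033), and 7 higher and 2 lower did not overlap (13.6% and 13.9% of all genes). Mcm2 had the smallest p, at 1.61 times or 0.69 ± 0.21 (log2, SE). Under non-mitochondrial scaling the median was 0.04 and 21 members were higher. The median was 0.0063 without ZT0 replicate 2, with 20 members higher, and 0.26 without ZT0 replicate 1. None was called (0% of all genes) and the smallest adjusted p was 0.878. By limma 3 members (7.69%) had an unadjusted p under 0.05, all higher, against 2.46% of all genes higher and 5.02% in either direction. That count of members was higher without ZT0 replicate 1 and lower without ZT18 replicate 1. At ZT12 21 members were higher and 18 lower than at ZT6 (50.9% and 49.1% of all genes), with a median of 0.07 (all genes 0.0091). Leaving out ZT12 replicate 2 turned that median to -0.14, and leaving out ZT12 replicate 1 gave 0.19; 12 higher and 6 lower did not overlap (23.5% and 22.2% of all genes). Pola1 had the smallest p there, at 2.03 times or 1.02 ± 0.33 (log2, SE). None was called (0% of all genes) and the smallest adjusted p was 0.705. By limma 3 members (7.69%) had an unadjusted p under 0.05, all higher, against 3.34% of all genes in that direction. Counted in either direction, the share of all genes was 6.78%, close to that of the members. Fewer members did so without ZT6 replicate 1, ZT6 replicate 2 or ZT12 replicate 2.

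**Figure D4:**
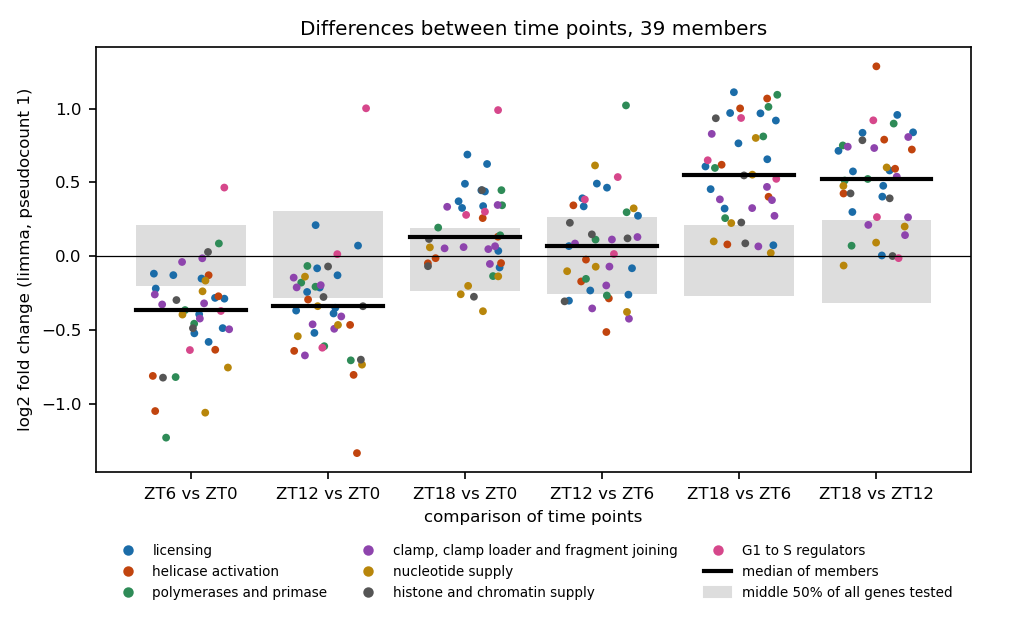
Log2 fold change (vertical axis, limma on log2 of normalised count plus 1) of the 39 members in each of the 6 comparisons of time points (horizontal axis); points are members coloured by role, black bars their median and grey boxes the interquartile range of all genes tested. The medians lie at 0.55 and 0.52 for ZT18 against ZT6 and ZT12, at -0.36 and -0.34 for ZT6 and ZT12 against ZT0, and near 0 in the other 2; the comparisons share libraries.

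Other replication genes, fixed as a list beside the members, differed in the same direction with smaller medians in the comparisons of ZT18 and ZT0 with ZT6. Of 64 genes, 63 were in the table and all 63 were tested (Chtf8 was not analysed here). By limma 0 were called in the cosine fit, the F-test or any comparison of time points. At ZT18 47 of 63 were higher than at ZT6 (48.4% of all genes), with a median log2 difference of 0.32, and at ZT6 49 were lower than at ZT0 (48.9% of all genes), with a median of -0.31. In the cosine fit 15 of 63 had p below 0.05 before adjustment, against 9.15% of all genes. The other genes of helicase activation and the fork had a median of 0.65 between ZT18 and ZT6 (8 of 8 higher), and the other G1 to S regulators 0.07 (8 of 15 higher).

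Of the 6 with the smallest p in the cosine fit, all but Nasp had an amplitude above the members' median of 0.38. Picking by that p favours wide amplitudes, and the median amplitude of all 63 was 0.28. Asf1b, a histone H3 and H4 chaperone, had 273 and 256 normalised counts in the ZT0 libraries, 94.9 and 62.01 in those of ZT6, 89.9 and 131 in those of ZT12, and 167 and 219 in those of ZT18, an amplitude of 0.91 ± 0.19 (log2, SE) and an adjusted p of 0.339. Cdc7, the kinase that fires licensed origins, had 113 and 229 normalised counts in the ZT0 libraries, 66.5 and 35.9 in those of ZT6, 48.7 and 65.7 in those of ZT12, and 107 and 224 in those of ZT18, with replicates of ZT0 and of ZT18 far apart. Dbf4, the partner that activates this kinase, had 333 and 392 normalised counts in the ZT0 libraries, 199.6 and 259 in those of ZT6, 189 and 195 in those of ZT12, and 396 and 279 in those of ZT18. In both, every ZT0 and ZT18 library was above every ZT6 and ZT12 library. E2f2, another activating E2F, had 703 and 603 normalised counts in the ZT0 libraries, 419 and 418 in those of ZT6, 96.4 and 277 in those of ZT12, and 569 and 568 in those of ZT18, with its lowest value in ZT12 replicate 1 and an amplitude of 1.02 that was 0.62 without that library. Wdhd1, which couples polymerase alpha to the helicase, had 159.9 and 322 normalised counts in the ZT0 libraries, 72.7 and 101 in those of ZT6, 228 and 231 in those of ZT12, and 272 and 303 in those of ZT18, where both ZT6 libraries were the lowest. Nasp, a histone chaperone, had 865 and 833 normalised counts in the ZT0 libraries, 569 and 606 in those of ZT6, 487 and 663 in those of ZT12, and 784 and 795 in those of ZT18. Of the fork protection pair, Timeless had 206 and 155 normalised counts in the ZT0 libraries, 87.5 and 134 in those of ZT6, 123 and 119.9 in those of ZT12, and 145 and 185 in those of ZT18. Its partner Tipin had 205 and 108 normalised counts in the ZT0 libraries, 89.9 and 95.7 in those of ZT6, 87.1 and 115 in those of ZT12, and 94.8 and 171 in those of ZT18. Their adjusted p in the cosine fit were 0.579 and 0.697.

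Genes of G2 and mitosis, the phases that follow S phase, were set beside the members because both are read from dividing cells. The median deviation of 18 such genes, Mki67, Cdk1 and Plk1 among them, was 0.75 and 0.47 in the ZT0 libraries, 0.10 and -0.19 in those of ZT6, -0.31 and -0.10 in those of ZT12, and -0.35 and -0.23 in those of ZT18. Both lists were low at ZT12 and at least level at ZT0, but at ZT18 the S phase genes stood at 0.26 and 0.34 and the mitotic genes below their mean. Between ZT18 and ZT0, all 18 mitotic genes were lower at ZT18 with a median of -0.93 (0.525 times), against 50.3% of all genes and a median of -0.0033. Of the 18, 16 had an unadjusted p under 0.05 by limma, against 346 of 13503 genes in that direction, and 0 were called (smallest adjusted p 0.303). In the same comparison 27 of 39 members were higher. The difference between the lists was not tested. The stem cell markers (6 genes, Lgr5 and Ascl2 among them; Olfm4 was not analysed here) had medians from -0.11 to 0.25 in 7 libraries and -0.46 in ZT18 replicate 1.

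**Figure D5:**
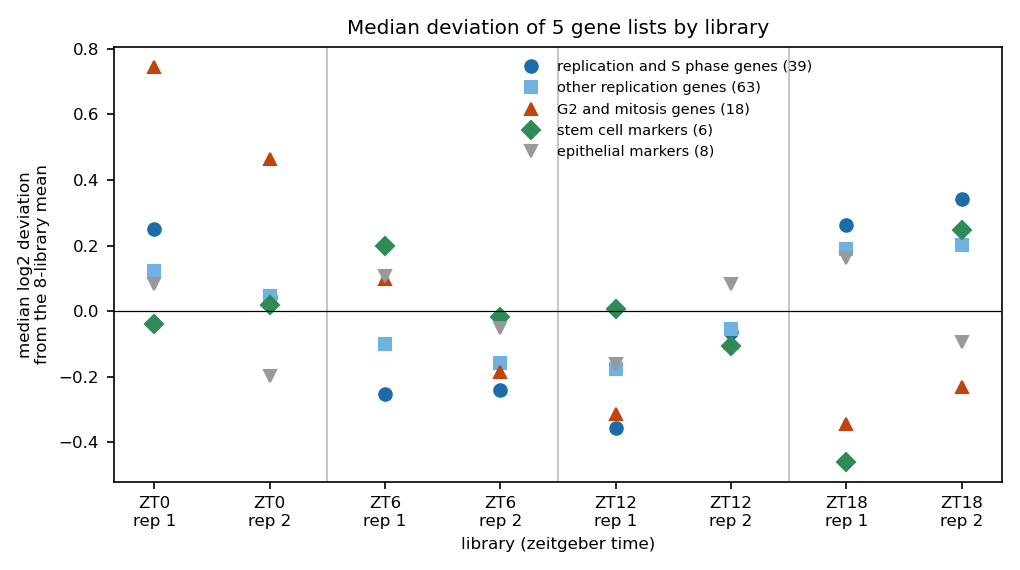
Median log2 deviation from the 8-library mean (vertical axis) of 5 gene lists in each library (horizontal axis); each symbol is the median of 1 list. Members and other replication genes lie above 0 at ZT0 and ZT18 and below it at ZT6 and ZT12, while the G2 and mitosis genes are highest at ZT0 (0.75 and 0.47) and below 0 at ZT18.

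Genes that respond to tissue handling also differed between libraries. For 8 early response genes the median deviation stood at 0.19 and 0.13 in both ZT0 libraries, 0.25 and -0.16 in those of ZT6, -0.66 and -0.23 in those of ZT12, and 0.38 and 0.16 in those of ZT18. They were above 0 at ZT0 and ZT18 and below it at ZT12, as the members were at ZT0, ZT18 and ZT12, while at ZT6 the members had -0.25 and -0.24. The part of handling in the result was not tested.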

How the data were processed

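RNA of colonic crypts was sequenced at 4 time points with 2 libraries each (14722342 to 25159440 reads over the listed genes). The authors aligned the reads with STAR to GRCm38 and used DESeq2 (counter, annotation and strand use are not given in the sources used here); the deposited values are a signal, read counts divided by 1 size factor per library, and 100% of values in each library were whole multiples of 1 step (tolerance 0.05 reads). The authors' own comparison (deposited log2 fold changes, a score and p-values) was not used. The labels name a VAHTS kit and the methods another, and the labels name no batch.

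Samples were grouped by the labels. Genes with a mean of at least 10 were tested on log2(value + 1), a scale that understates the fold of low genes, with limma 3.58.1 in R 4.3.3 (empirical Bayes with a mean-variance trend): a 24 h cosine, an F-test and 6 contrasts in 1 fit of 8 libraries, two-sided, Benjamini-Hochberg over 13503 genes, called under 0.05. An exact rank test over 4 cosine orders followed the study's JTK. Members were given in full if highest per kb or widest in amplitude in their role, or of smallest p in a contrast, and Timeless, Tipin and 6 other replication genes by smallest cosine p; the rest are given by values or range, and the scripts were tested on simulated data. The members and lists were chosen with earlier results of these data known. Alternatives were TMM, quantile and non-mitochondrial scaling, pseudocounts of 0.1 and 5, no filter or a mean of 50, no trend, edgeR 4.0.16 and DESeq2 1.42.0 on recovered reads, removal of GC and length trends (GENCODE annotation), a replicate block, only the 4 libraries compared, and leaving out libraries. Chosen after seeing the data were leaving out ZT0 replicate 2 with ZT12 replicate 1, also for the split of the libraries and for 3 amplitudes, and members with a mean of at least 300. The window of 17 to 23 h for the fitted peaks was not fixed beforehand either.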

Additional observations from a re-analysis of the deposited data

How the results depend on the processing

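Of the summary values of the members under the alternatives (counts called, counts under an unadjusted p of 0.05, medians of the 6 comparisons and medians by library), 529 moved by less than the spread between replicates (counts by less than the set limit) and 39 by more; a median changed sign for ZT12 against ZT6, at -0.14 without ZT12 replicate 2, and for ZT0 replicate 2, at -0.0074 after quantile normalisation. DESeq2 called 5 members in the cosine fit, 4 in the F-test and 4 for ZT18 against ZT6, where limma and edgeR called 0. With GC and length trends removed, 1 member had p under 0.05 for ZT12 against ZT6, 2 were under the exact rank p, the median for ZT18 against ZT12 was 0.66 and that of ZT18 replicate 1 was 0.39. Without both ZT0 replicate 2 and ZT12 replicate 1 the counts under 0.05 were 1 (ZT12 against ZT0), 1 (ZT18 against ZT0) and 6 (ZT18 against ZT12); the cause was not tested. Leaving out 1 library at a time, the counts called stayed at 0 in limma; the counts under 0.05 ran from 10 to 15 (cosine), 6 to 14 (F-test), 3 to 14 (ZT6 against ZT0), 1 to 8 (ZT12 against ZT0), 1 to 7 (ZT18 against ZT0), 0 to 3 (ZT12 against ZT6), 9 to 16 (ZT18 against ZT6), 5 to 14 (ZT18 against ZT12) and 0 to 7 (rank test). The medians ran from -0.41 to -0.31, -0.50 to -0.18, 0.0063 to 0.26, -0.14 to 0.19, 0.53 to 0.64 and 0.43 to 0.66 in the same order of comparisons; a lone library was assumed to vary like the other groups. The rank test cannot fall under 0.05 for a peak at ZT6 or ZT18 once a ZT6 or ZT18 library is left out. Its range of counts partly reflects that limit. Replicate numbers did not pair the libraries (correlations of their deviations from -0.29 to 0.22). With a replicate block (fitted although the numbers did not pair) 14 members had p under 0.05 in the cosine fit, 12 in the F-test and 16 for ZT18 against ZT6, and 0 were called. At 2 libraries a time point, members with few reads such as Gins3 (mean 53.2 normalised counts) carry the largest relative counting error.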
